A study of Mus musculus with 6 samples.

Results

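The genes described here encode the AP-1 transcription factors and their close partners: Jun, Junb, Jund, Fos, Fosb, Fosl1, Fosl2, Atf3, Maff and Batf. They were chosen by gene symbol, taking every probe that is not a control and carries one of these symbols in the deposited annotation of the array, which gave 10 genes and 11 probes out of 24239 gene symbols and 55681 probes. Male B6C3F1 mice, a hybrid strain, took either corn oil (control) or trichloroethylene (TCE, an organic solvent) by mouth for 5 days, the latter at 1000 mg/kg b.w. with corn oil as its vehicle. The mice were 7 weeks old. The labels name no transgene or deletion, and whole liver RNA of 3 mice per group was hybridized to 1-colour microarrays, 1 mouse per array. Whole liver mixes hepatocytes with other cells, so that fewer cells of a type and less RNA per cell cannot be told apart.

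AP-1 is a dimer of proteins with a basic leucine zipper (bZIP). Jun proteins can pair with each other or with a Fos protein, while Fos proteins need a Jun partner, and Atf3, Maff and Batf are smaller bZIP proteins that can join such dimers. Jun is switched on by the kinase JNK and is known in the liver for its part in hepatocyte proliferation and survival. The question asked of the 6 arrays was which of the partners changed along with Jun.

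Signals are quantile-normalized log2 intensities, so that a difference of 1 is a 2-fold change. A probe entered the tests if the scanner software called it well above background in each of the 3 mice of the control group, of the TCE group or of both. This left 7 of the 10 genes: Jun, Junb, Jund, Fosb, Fosl2, Atf3 and Maff. Of these, 4 were above background on all 6 arrays, while Junb, Fosb and Atf3 passed through the TCE group and were not above background in every control mouse. The 3 genes not tested were Fos, Fosl1 and Batf. Changes were tested with limma, a linear model that pools the spread over all 22731 tested probes, and a gene was past the threshold with a 2-fold change or more and an adjusted p (Benjamini-Hochberg) of at most 0.05.

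Jun and Atf3 rose in the liver of TCE mice, by 5.72-fold and 7.38-fold, and these were the 2 members past the threshold. Among all 13284 tested genes 1.3% were past it in the same direction. The other 5 tested members had higher means in the TCE group but did not reach the threshold. Their fold changes were 2.31 for Fosb, 1.85 for Maff, 1.64 for Jund, 1.53 for Junb and 1.14 for Fosl2. The median log2 fold change of the 7 tested members was 0.89, beside 0.02 over all tested genes, of which 53.1% had a higher mean in the TCE group. This median is a description of the genes tested, since Junb, Fosb and Atf3 were tested only through their signal in the TCE group. Without the filter Fos, Fosl1 and Batf, which are near background, had log2 differences of 0.069, 0.29 and 0.087.

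Arrays had between 23538 and 24968 probes well above background and 0 saturated spots. Control mouse 1 was on a slide of its own, and the other 5 mice shared the second slide. Of 38 tested marker genes of liver cell types, 0 were past the threshold, beside 1.73% of all tested genes. An unadjusted limma p below 0.05 was found for 4, beside 19.1% of all tested genes. Means in the TCE group were higher for 10 markers and lower for 28, while 53.1% of all tested genes had a higher mean. The log2 of the summed signal of the 7 hepatocyte markers, all tested, was 20.60 to 20.61 in control mice and 20.40 to 20.59 in TCE mice, and that of the 3 tested of 7 T and NK cell markers was 13.98 to 14.28 and 12.53 to 13.95. In both lists the sums of the groups did not overlap, and the part of these shifts in the changes of the AP-1 genes was not tested. Such a sum follows the brightest markers of its list. Taken singly, Alb, Cyp2e1, Hnf4a, Serpina1c and Ttr of hepatocytes and Cd3e and Nkg7 of T and NK cells had overlapping groups. Apoa1, Cps1 and Cd4 did not. The summed signals of the 6 other marker lists overlapped between the groups. The 4 markers with an unadjusted p below 0.05 were Lrat of stellate cells, with a log2 fold change of -1.35, S100a8 of neutrophils with 1.19, Cd3e of T cells with -0.63 and Apoa1 of hepatocytes with -0.31, and they were chosen after their values were seen. The groups overlapped for Cd3e and did not overlap for the other 3 markers, nor for the markers Cps1, Cd4 and Stab2. Of all tested genes, 27.9% had groups that did not overlap, in either direction.

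**Figure D1:**
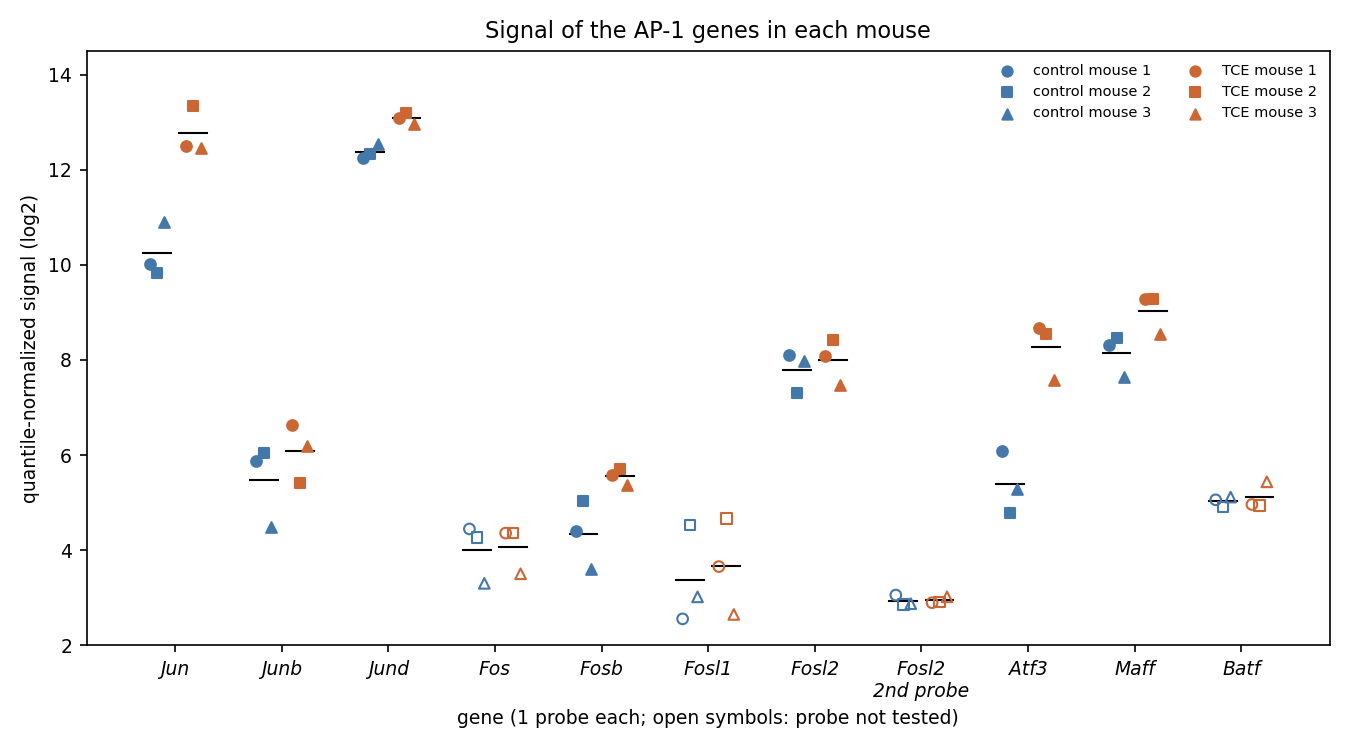
Quantile-normalized log2 signal (vertical axis) of each AP-1 probe in each of the 3 control and 3 TCE mice, with a line at each group mean and open symbols for probes that were not tested. The TCE mice lie above the control mice for Jun (12.46 to 13.34 against 9.84 to 10.89) and for Atf3 (7.58 to 8.67 against 4.78 to 6.08), while Fos and Batf have nearly the same mean in both groups.

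In the Jun family, Jun itself had the widest gap between the groups. The Jun probe (mm9, chr4:94716928-94716987) had a log2 signal of 10.02, 9.84 and 10.89 in control mice 1, 2 and 3, and of 12.49, 13.34 and 12.46 in TCE mice 1, 2 and 3. Every TCE mouse was above every control mouse, TCE mouse 2 was the highest and control mouse 3 came nearest to the TCE group. The log2 fold change was 2.52 ± 0.36 (SE, limma adjusted p = 0.0287; exact permutation test, two-sided, p = 0.1, the smallest that 3 mice against 3 allow). Its call rested on few mice: with 1 mouse left out the change stayed between 2.23 and 2.84, but the limma adjusted p ran from 0.0397 to 0.116 and was past the threshold only without control mouse 3. Among the 5 mice of the second slide the change was 2.40 (limma adjusted p = 0.105).

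Jund encodes the Jun protein that resting cells hold at a steady level. Its probe (chr8:73224436-73224495) read 12.24, 12.32 and 12.53 in control mice and 13.08, 13.19 and 12.96 in TCE mice. The groups did not overlap and the spread was narrow, with an SD of 0.15 in control and 0.12 in TCE mice (n = 3 each). The log2 fold change was 0.71 ± 0.13 (SE, limma adjusted p = 0.0587), and it stayed below 2-fold under every alternative processing that was run. Its limma adjusted p fell to 0.0494 under another background correction (normexp), 0.0260 with an intensity trend and 0.0408 with array weights. In all other settings it was above 0.05, and with 1 mouse left out it ran from 0.0965 to 0.216. Junb encodes a Jun protein that can restrain Jun. Its probe (chr8:87501881-87501940) read 5.88, 6.05 and 4.48 in control mice and 6.62, 5.42 and 6.20 in TCE mice. TCE mouse 2, highest for Jun, was the lowest of its group for Junb and lay within the range of the controls. The log2 fold change of Junb was 0.61 ± 0.49 (SE, limma adjusted p = 0.566), with 2 of 3 control arrays above background.

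The Fos family gave no member past the threshold. Fosb encodes a Fos protein that activates transcription together with Jun. Its probe (chr7:19888168-19888227) read 4.40, 5.04 and 3.60 in control mice, of which 1 was above background, and 5.58, 5.71 and 5.38 in TCE mice, all above it. Every TCE mouse was above every control mouse, and the TCE mice lay close together (SD 0.17, n = 3) while the control mice did not (SD 0.72, n = 3). The log2 fold change was 1.21 ± 0.35 (SE, limma adjusted p = 0.153). By the methods' t-test without adjustment Fosb was past the threshold too, beside Jun and Atf3, as were 3.09% of tested genes. Under another background correction, normexp, it was 0.31 (limma adjusted p = 0.249), and without control mouse 3 it was 0.84.

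Fosl2 encodes a Fos protein without the strong activating end of Fos and Fosb. Its tested probe (chr5:32460076-32460135) read 8.11, 7.31 and 7.98 in control mice and 8.09, 8.42 and 7.47 in TCE mice. The groups overlapped, and the log2 fold change of 0.19 ± 0.31 (SE, limma adjusted p = 0.786) turned slightly negative without control mouse 2 or without TCE mouse 2. On all 6 arrays the second Fosl2 probe (chr5:32455088-32455147) was at background.

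Fos, the classic partner of Jun, was at background in all 6 mice. Its probe (chr12:86817900-86817959), printed at 10 spots per array, averaged 4.45, 4.27 and 3.30 in control mice and 4.36, 4.36 and 3.50 in TCE mice. Of the 60 spots, 7 were above background, and the SD between spots of an array ran from 0.29 to 0.70. A change of Fos was not detectable at this signal, since both groups are at background. Fosl1, a Fos protein induced by growth signals, was likewise at background (chr19:5455496-5455555), with signals of 2.56 to 4.53 in control and 2.65 to 4.67 in TCE mice. Both groups covered nearly the same range.

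Atf3, which is induced by many kinds of cell stress and can pair with Jun, was the other member that rose. Its probe (chr1:192994547-192994606) read 6.08, 4.78 and 5.28 in control mice, of which 2 were above background, and 8.67, 8.54 and 7.58 in TCE mice. Every TCE mouse was above every control mouse, with control mouse 1 and TCE mouse 3 nearest to each other. The log2 fold change was 2.88 ± 0.42 (SE, limma adjusted p = 0.0296; exact permutation test, p = 0.1). With 1 mouse left out it stayed between 2.59 and 3.24, and the limma adjusted p, from 0.0377 to 0.110, was past the threshold without control mouse 1 (3.24, the change among the mice of the second slide) and without TCE mouse 3 but not without any of the other 4. Under normexp the change was 1.77 (limma adjusted p = 0.0207), while that of Jun was 2.44 (limma adjusted p = 0.0132), so that the order of the changes of both genes turned.

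Maff encodes a small Maf protein, which lacks an activating domain of its own. Its probe (chr15:79189442-79189501) read 8.31, 8.47 and 7.65 in control mice and 9.28, 9.28 and 8.55 in TCE mice. The groups did not overlap, though TCE mouse 3 was only just above control mouse 2, and the log2 fold change was 0.89 ± 0.29 (SE, limma adjusted p = 0.193). Batf, known from lymphocytes, where it pairs with Jun proteins, was above background in 1 control and 2 TCE mice (chr12:87049872-87049929). It averaged 5.06, 4.91 and 5.12 in control and 4.96, 4.94 and 5.44 in TCE mice over 10 spots per array, and TCE mouse 3 was the highest while the other TCE mice lay within the controls. A probe with several spots counted as above background where a share of more than 0.5 of its spots was. For Batf 39 of 60 spots were above it, and control mice 1 and 2 and TCE mouse 2 missed the cut with 5 of 10.

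In 5 of the 7 tested members every TCE mouse was above every control mouse, which was so in 17.1% of all tested genes. An unadjusted limma p below 0.05 was found for the same 5 members, Jun, Atf3, Jund, Fosb and Maff, and for 12% of tested genes in that direction. These counts are a description, because 3 of the 7 members were tested only through their signal in the TCE group. The probes of different members shared a longest run of 9 of 60 bases in any of the 55 pairs, and no more than 6 bases with the Jun probe.

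**Figure D2:**
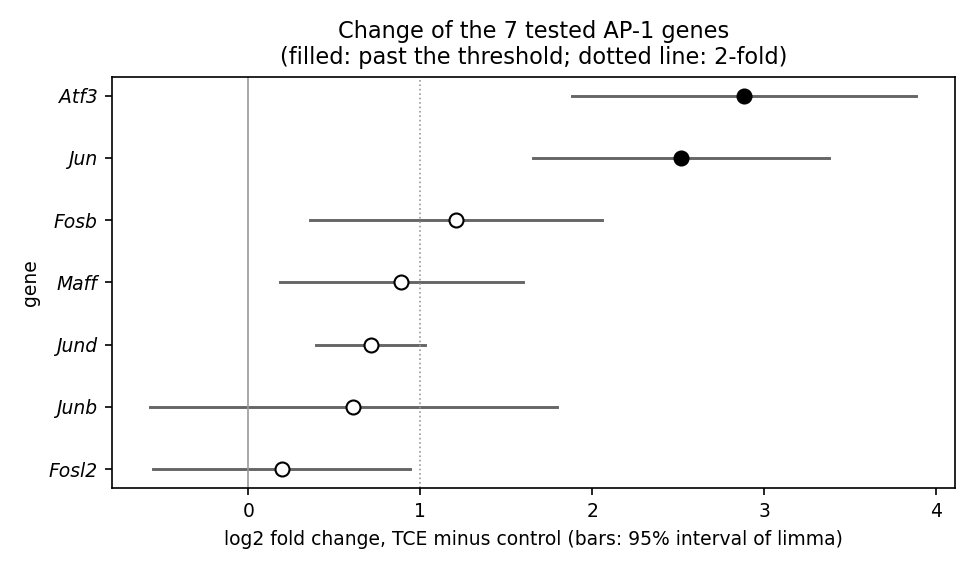
Log2 fold change of the 7 tested AP-1 genes (horizontal axis, TCE minus control, 3 mice each) with its 95% interval from limma. The filled points of Atf3 (2.88, 1.88 to 3.89) and Jun (2.52, 1.65 to 3.38) lie right of the others, and the intervals of Junb and Fosl2 include 0.

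The promoters are shown for the pair that rose together, Jun and Atf3, for Dusp8, a JNK pathway gene described further on that rose as well, and for Fos, which was not detected. Each is the 250 bases before the start of the gene in RefSeq, assembly GRCm38.p6, a build other than that of the probe positions. The windows lie at chr4:95052223-95052472 on the minus strand for Jun, chr1:191183334-191183583 on the minus strand for Atf3, chr7:142095285-142095534 on the minus strand for Dusp8 and chr12:85473640-85473889 on the plus strand for Fos. Letters in capitals mark matches, on either strand, to 4 motifs: TGACTCA, the classic AP-1 site; TGACGTCA, the cAMP response element that Jun and Atf dimers also bind; TGACATCA, its variant known from the Jun promoter; and TGACG, the core of the cAMP response element, which TGACGTCA contains.
Jun: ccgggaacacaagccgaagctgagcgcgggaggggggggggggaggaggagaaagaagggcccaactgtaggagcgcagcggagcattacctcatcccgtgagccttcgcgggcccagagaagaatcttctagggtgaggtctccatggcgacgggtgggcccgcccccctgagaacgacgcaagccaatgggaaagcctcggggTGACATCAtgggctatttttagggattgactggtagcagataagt
Atf3: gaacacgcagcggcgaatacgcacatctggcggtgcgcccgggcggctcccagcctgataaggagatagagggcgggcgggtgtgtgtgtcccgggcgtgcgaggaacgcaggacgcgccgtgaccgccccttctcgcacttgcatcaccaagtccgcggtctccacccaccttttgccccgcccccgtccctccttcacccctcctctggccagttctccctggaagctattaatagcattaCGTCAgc
Dusp8: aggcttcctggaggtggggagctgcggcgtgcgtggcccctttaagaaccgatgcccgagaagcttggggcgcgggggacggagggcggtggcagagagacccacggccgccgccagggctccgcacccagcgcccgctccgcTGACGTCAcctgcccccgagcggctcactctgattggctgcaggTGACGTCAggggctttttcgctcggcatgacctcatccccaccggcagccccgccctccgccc
Fos: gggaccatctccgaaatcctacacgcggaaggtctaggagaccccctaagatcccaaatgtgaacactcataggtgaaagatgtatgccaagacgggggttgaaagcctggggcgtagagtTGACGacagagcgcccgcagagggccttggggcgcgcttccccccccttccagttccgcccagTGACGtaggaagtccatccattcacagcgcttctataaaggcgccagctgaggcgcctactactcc

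In the Jun window TGACATCA began 45 bases before the start. The Atf3 window held the core on the opposite strand, 7 to 3 bases before the start, the Dusp8 window held TGACGTCA at 107 and again at 63 bases before it, and the Fos window held the core at 129 and at 66 bases. Over all 32851 RefSeq windows of this length, TGACATCA was found in 2.93%, TGACGTCA in 1.55%, TGACG in 17.8% and TGACTCA in 4.46%. A window was given for 9 of the 10 members, and several for Maff. The core was found in 6 of these genes, TGACATCA in Jun and Maff, TGACGTCA in Maff, and TGACTCA in 0. These are counts of genes, while the shares above are of single windows, so the counts and shares are not directly comparable. The Jun window held 15 CpG dinucleotides and that of Atf3 24, beside a median of 6 and a 90th percentile of 25 over all windows. The windows of the other members held 23 (Fosl2), 20 (Junb), 19 (Fosb), 15 (Fos), 7 (Batf) and 3 (Jund), and those of Maff 4, 18 and 13. A match of letters does not show that a factor bound there, and binding was not measured on these arrays.

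The changes of the partners were then set against that of Jun, by subtracting the Jun signal of the same mouse from that of each probe. Measured from the mean of the control mice, Jun was higher by 2.24, 3.09 and 2.21 in TCE mice 1, 2 and 3, and Atf3 by 3.29, 3.16 and 2.20. Both genes were nearly equal in TCE mice 2 and 3 and differed by about 1 in TCE mouse 1. The change of Atf3 exceeded that of Jun by 0.37 on the log2 scale, with a 95% interval of -1.29 to 2.03 (exact permutation test, two-sided, p = 0.5), so that the changes of both genes could not be told apart and could still differ by up to about 2 log2 units.

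Jund changed less than Jun, by -1.80 (95% interval -2.75 to -0.86; exact permutation test, p = 0.1), and so did Fosl2, by -2.32 (-3.28 to -1.36; exact p = 0.1). For both, the difference from Jun separated all TCE mice from all control mice. For Maff the difference was -1.62 (-3.38 to 0.14; exact permutation p = 0.2), for Fosb -1.31 (-3.43 to 0.82; exact p = 0.3) and for Junb -1.90 (-4.78 to 0.97; exact p = 0.3). These 3 intervals include 0, and they also reach changes far smaller than that of Jun. The intervals use the variance of each difference among the 6 mice. The pooled variance of limma put 5 of the 6 partners, all but Atf3, at an adjusted p of 0.05 or less, as it did for 98.9% of tested genes. That p is too small, because every difference holds the same 6 values of Jun, and nothing is read from it here. With the variance of each gene alone, an unadjusted p of 0.05 or less was found for 96.1% of tested genes, and groups separated by the difference for 97.8%, so that a change other than that of Jun is what most genes on the array had.

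**Figure D3:**
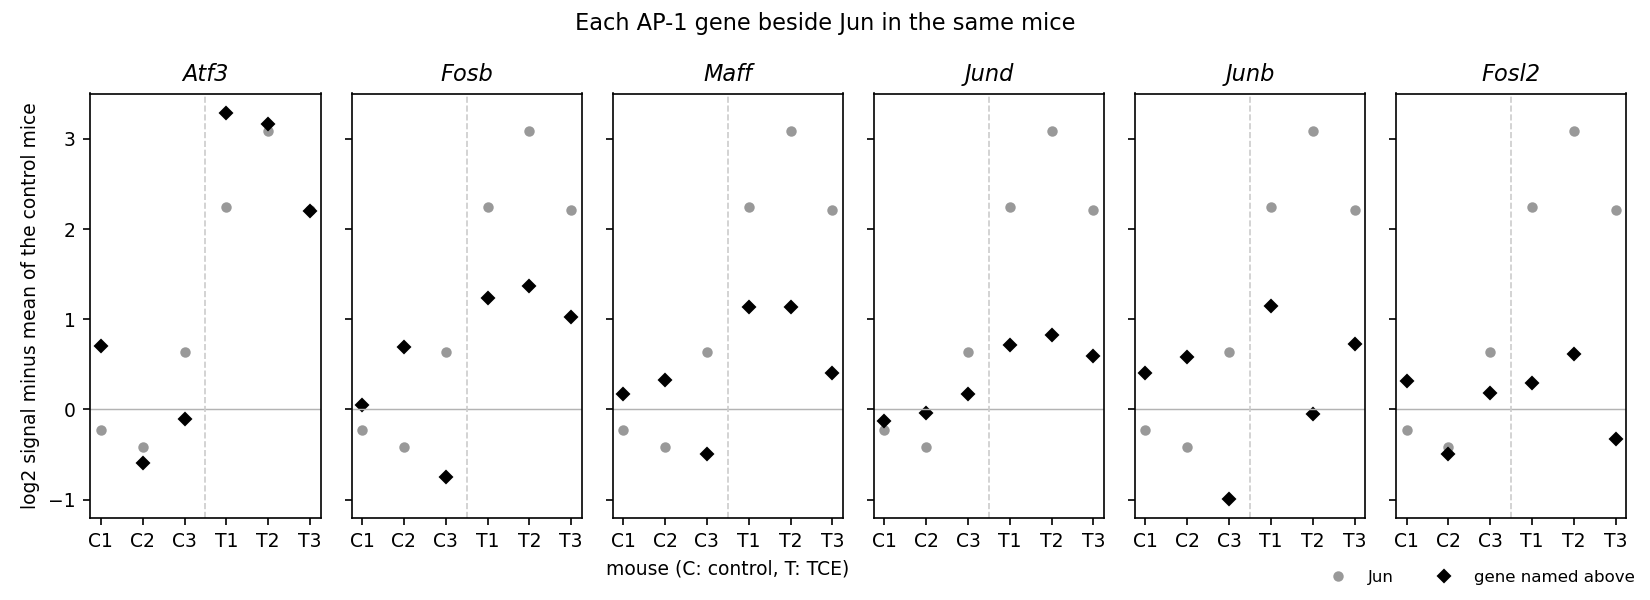
Log2 signal minus the mean of the control mice (vertical axis) for Jun (grey circles) and 6 partners (black diamonds) in control mice (C1 to C3) and TCE mice (T1 to T3). Atf3 stands at 2.20 to 3.29 in the TCE mice, near Jun at 2.21 to 3.09, while Fosb (1.03 to 1.36), Maff (0.40 to 1.13), Jund (0.60 to 0.83), Junb (-0.05 to 1.15) and Fosl2 (-0.33 to 0.62) stand lower.

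Within the groups the members did not keep one order of mice. Control mouse 3 was the highest control for Jun, Jund and Batf but the lowest for Junb, Fos, Fosb and Maff. Among the genes above background, TCE mouse 2 was the highest TCE mouse for Jun, Jund, Fosb and Fosl2, and TCE mouse 3 was the lowest of its group for Jun, Jund, Fosb, Fosl2, Atf3, Maff and, at background, Fos and Fosl1. With 3 mice per group such orders are a description, and a correlation over the 6 mice was not computed since they fall into 2 separate groups.

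The likeness of other genes to Jun was measured by the root mean square distance between the 6 values of a gene and those of Jun, each centred on its control mean, over 13278 tested genes with a value in every mouse. Atf3 was the nearest member, at a distance of 0.65 and rank 49. Fosb was at 1.20 (rank 322), Maff at 1.31 (rank 468), Jund at 1.32 (rank 486), Fosl2 at 1.68 (rank 3052) and Junb at 1.70 (rank 3451). The 5 genes nearest to Jun were no members. Gal3st1, which encodes a sulfotransferase that makes sulfated glycolipids, lay at 0.18, with signals of 4.19, 4.12 and 5.07 in control mice, 1 of them above background, and 6.71, 7.42 and 7.07 in TCE mice. Adam32, of the ADAM family, lay at 0.27 and rose from 6.64 ± 0.33 to 8.91 ± 0.47 (SD, n = 3 each; limma adjusted p = 0.0192). Bhlha15, a transcription factor of secretory cells, lay at 0.33 and rose from 5.26 ± 0.54 to 8.08 ± 0.18 (SD, n = 3 each; limma adjusted p = 0.00923). It was above background in 2 of the 3 control mice, so that it was tested only through the TCE group. Cdkn3, a cell cycle phosphatase, lay at 0.37, but it was not above background in any control mouse, so that its distance rests on control signals that were not measured precisely. It was at least 2.38-fold higher in TCE mice, with a limma adjusted p of 0.0616, a limit that holds for the signals as processed here: under normexp its log2 fold change was 0.68, which is less. Cdca3, which acts at entry into mitosis, lay at 0.39 and rose from 6.68 ± 0.14 to 8.79 ± 0.39 (SD, n = 3 each; limma adjusted p = 0.0103). Calls were kept in 6 of 6 fits with 1 mouse left out for Bhlha15, in 4 for Cdca3, in 3 for Adam32 and in 2 for Gal3st1 (limma adjusted p = 0.0162 with all mice). Under normexp the log2 fold changes of Gal3st1, Adam32, Bhlha15 and Cdca3 were 1.20, 1.74, 1.67 and 1.45, each less than the 2.44 of Jun, and the distances were not recomputed there.

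**Figure D4:**
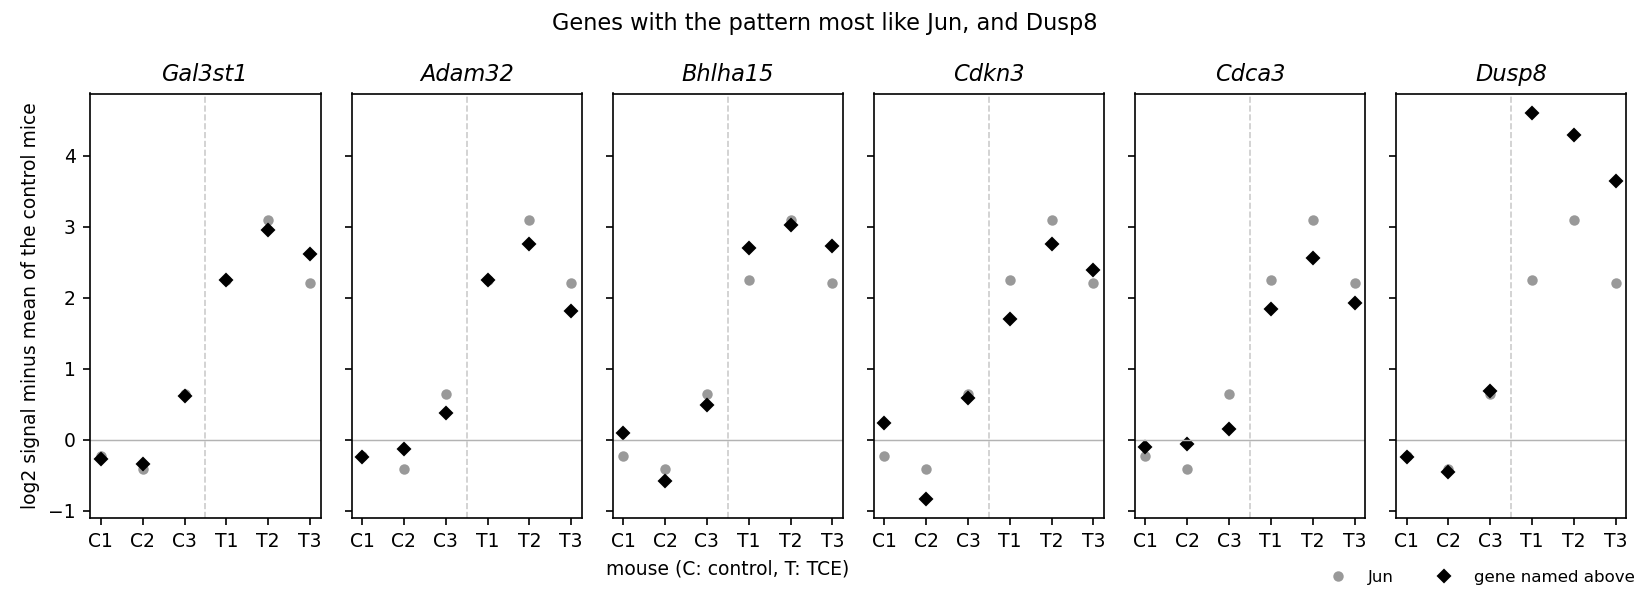
Log2 signal minus the mean of the control mice (vertical axis) for Jun (grey circles) and, in black, the 5 genes whose pattern was nearest to it and Dusp8, in control mice (C1 to C3) and TCE mice (T1 to T3). Gal3st1 lies close to Jun in all mice, at a distance of 0.18, which rests in part on background signals, since only 1 of its control mice was above background. The control mice of Cdkn3 and Dusp8 are all at background, so that the heights of these 2 genes are not measured changes.

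The genes around AP-1 were followed in 4 lists with 114 genes, of which 89 were tested, 52 with higher and 37 with lower means in the TCE group. A single gene, Dusp8, was past the threshold, beside 1.73% of all tested genes in either direction, and 21 had an unadjusted limma p below 0.05, beside 19.1%. With an unadjusted limma p and a 2-fold change, 8 list genes would have passed, beside 3.67% of tested genes. The median log2 fold change was 0.03 in the lists together.

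Upstream of Jun stand the MAP kinases, their activators and the phosphatases that switch them off. Of 37 listed genes 30 were tested, 20 with higher and 10 with lower means, and the median log2 fold change was 0.09. Dusp8, a phosphatase of JNK and p38, rose. Its probe (chr7:149267534-149267593) read 3.11, 2.89 and 4.04 in control mice, never above background, and 7.95, 7.64 and 6.99 in TCE mice, all above it. It was at least 6.68-fold higher in TCE mice (limma adjusted p = 0.00625), a lower limit set by the dimmest signal above background on each control array. Under normexp its log2 fold change was 1.62 (limma adjusted p = 0.00460), which is less than that limit. It was past the threshold in 6 of 6 fits with 1 mouse left out. A second Dusp8 probe was above background in 2 of the TCE mice and in no control mouse, and its lower limit was only 1.89-fold. The next in size did not pass. Gadd45b, which activates a kinase above JNK and p38, read 7.44, 6.72 and 7.03 in control and 8.96, 9.16 and 7.77 in TCE mice, and its log2 fold change was 1.57 ± 0.39 (SE, limma adjusted p = 0.115). Dusp10 and Dusp1, both phosphatases of JNK and p38, had log2 fold changes of 1.25 (limma adjusted p = 0.434) and 0.99 (limma adjusted p = 0.274), with overlapping groups.

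Among the other bZIP factors, some of which can pair with Jun or Fos, 31 of 33 were tested, 18 had higher and 13 lower means. By limma 0 passed, while 7 of the 31 had an unadjusted limma p below 0.05, beside 19.1% of all tested genes. Ddit3, induced by stress of the endoplasmic reticulum, read 8.06, 7.90 and 7.46 in control and 8.79, 9.14 and 8.67 in TCE mice, and its log2 fold change was 1.06 ± 0.21 (SE, limma adjusted p = 0.0661). Its groups did not overlap. Cebpb and Cebpd, factors of the acute phase response in liver, had log2 fold changes of 0.98 (limma adjusted p = 0.140) and 1.11 (limma adjusted p = 0.191). Nfe2, a partner of small Maf proteins known from blood cells, had the only log2 fold change beyond 1 in the other direction, from 7.03 ± 0.65 in control to 5.66 ± 0.10 in TCE mice (SD, n = 3 each; limma adjusted p = 0.10).

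The list of direct regulators of Jun and Fos was close to balanced, with 13 of 14 tested, 6 higher and 7 lower. By limma 0 passed, while 3 of the 13 had an unadjusted limma p below 0.05, beside 19.1% of all tested genes. Elk3 and Elk4, which bind the serum response element of Fos, had log2 fold changes of -0.75 (limma adjusted p = 0.0932) and -0.54 (limma adjusted p = 0.158), and Mef2a, a factor that binds the Jun promoter, had -0.83 (limma adjusted p = 0.0740). Their probes disagreed in part: the other 2 tested probes of Mef2a gave 0.29 and 0.26, those of Elk4 -0.04 and 0.40, and the other tested probe of Elk3 gave -0.46. Itch, a ubiquitin ligase of Jun, had -0.33 (limma adjusted p = 0.343).

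Of 30 known targets of AP-1, 15 were tested, 8 with higher and 7 with lower means, and the median log2 fold change was 0.00. By limma 0 passed, while 6 of the 15 had an unadjusted limma p below 0.05, beside the 19.1% of all tested genes. Mt2, a metallothionein, read 14.39, 15.47 and 13.48 in control and 17.42, 15.73 and 16.27 in TCE mice, and its log2 fold change was 2.03 ± 0.61 (SE, limma adjusted p = 0.162). The groups were nearly in contact, at control mouse 2 and TCE mouse 2. Cdkn1a, an inhibitor of the cell cycle, was above the controls in every TCE mouse (limma adjusted p = 0.0567). Ccnd1, a cyclin of the G1 phase, read 9.60, 9.33 and 9.51 in control and 10.28, 9.95 and 10.32 in TCE mice, and its log2 fold change was 0.70 ± 0.15 (SE, limma adjusted p = 0.0809). Hmox1, a heme oxygenase induced by oxidative stress, had 1.03 (limma adjusted p = 0.139), while its other tested probe gave -0.09.

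**Figure D5:**
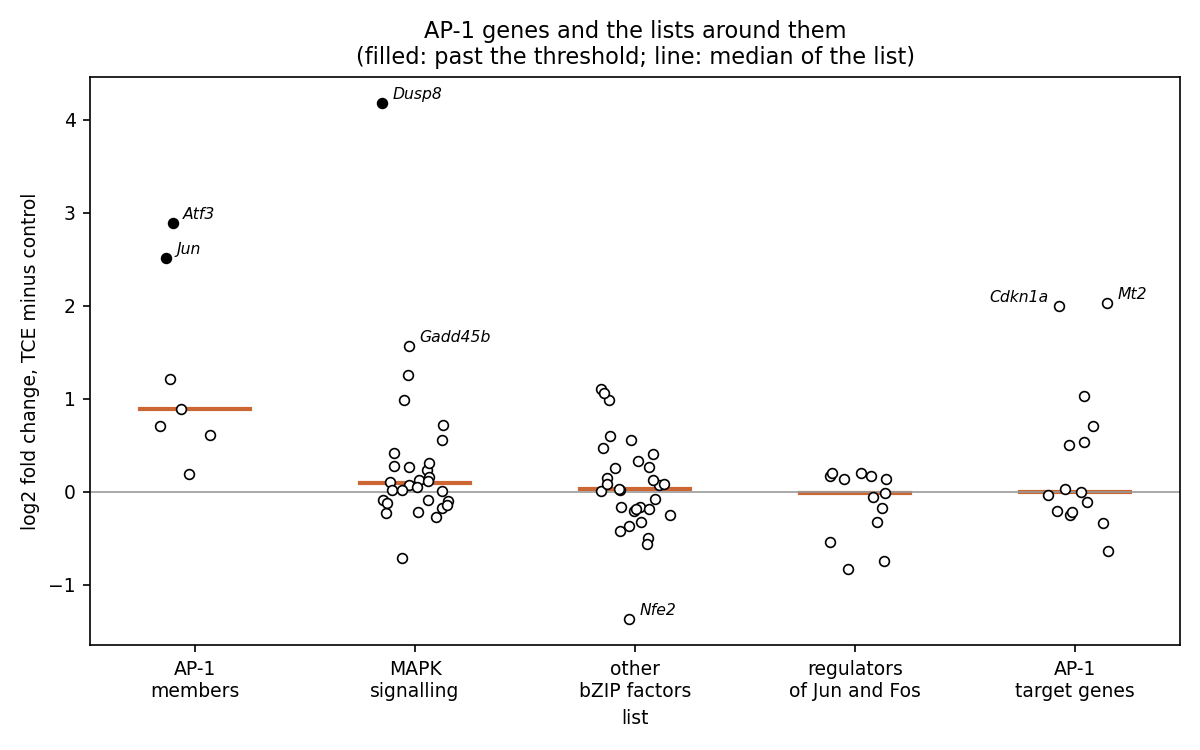
Log2 fold change (vertical axis, TCE minus control, 3 mice each) of each tested gene, for the AP-1 members and the 4 lists around them, with a line at the median of each list and filled points past the threshold. The medians of the lists lie between -0.01 and 0.09 and that of the 7 tested members, of which 3 were tested only through the TCE group, at 0.89. Dusp8, whose control mice are at background, is the filled point of the MAPK list.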

How the data were processed

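Liver RNA of 3 control and 3 TCE mice was measured on 1-colour arrays of 60-base probes. The authors extracted the spots with Agilent Feature Extraction 10.7.1.1, and the deposited intensity of a spot is after background subtraction and correction of trends. The authors also deposited group means of quantile-normalized log2 values, with detection flags that were not used. Members of AP-1 and all gene lists were chosen with earlier results of these data known.

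Here log2 of that intensity was taken, without a pseudocount, outlier spots (123 to 189 per array) were dropped, repeat spots were averaged by probe, and the arrays, control spots left aside, were quantile normalized. Group means of the members lay within 0.00142 of the authors' deposited log2 means. Tests used limma 3.58.1 in R 4.3.3 with version 1.17.8 of data.table (two-sided lmFit and eBayes fits with no factor but the group), with Benjamini-Hochberg adjustment over 22731 probes, and were first run on simulated data. A gene was represented by its tested probe with the highest mean signal. Exact permutation tests, two-sided, went through the 20 possible splits of the mice. Where a whole group was at background, the fold change is a lower limit, with each array of that group put at the dimmest signal the software still called above background, unless the probe itself was brighter. The number of arrays limits the precision.

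Named besides the members were list genes past the threshold, the 4 largest changes of each list and the 5 genes nearest to Jun. Gstp1 and Trp53 were named as well, for their unadjusted limma p. The array annotation gives probe positions on mm9. Promoters were taken from RefSeq by symbol. The alternatives were another normalization (75th percentile), another background correction (normexp, offset 50), no filter or a stricter one for dim probes, a block for the slide or for the replicate number, outlier spots kept, an intensity trend, array weights, the mean of a gene's probes, the methods' t-test, other thresholds and each mouse left out. Proteins, other doses and methylation were not analysed here.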

Additional observations from a re-analysis of the deposited data

How the results depend on the processing

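Of 109 refits of the 7 tested members under other settings, 93 kept their direction and their side of the threshold. In 14, all of Jun or Atf3, the direction was kept and the call was lost. In the remaining 2, the log2 fold change of Fosl2 changed sign, to -0.050 without control mouse 2 and -0.018 without TCE mouse 2, in a range of -0.050 to 0.45 with each mouse left out. Jun kept its call in 8 refits and lost it in 8, and Atf3 kept its call in 9 and lost it in 6. The other tested members had no call to lose, so the 93 do not measure how stable the calls were. Of the 2 members past the threshold, 0 remained without a filter on dim probes, where both kept their log2 fold changes, 1 (Jun) with probes above background on all 6 arrays, where Atf3 was not tested, 1 (Atf3) with the slide as a block, and 0 to 1 with each mouse left out. By the methods' t-test there were 3 without adjustment, Fosb being added, and 0 after Benjamini-Hochberg adjustment. The pooled variance called 5 of 6 partners as changed by another amount than Jun, but also 98.9% of tested genes, so nothing is read from that count. It was 8 of 9 without a filter, 3 with probes above background on all 6 arrays, where fewer partners were tested, and 4 to 6 with each mouse left out. With the variance of each gene alone it was 2, beside 96.1% of tested genes, and by complete separation of the groups 2, beside 97.8%. The last settings and the unadjusted limma p were chosen after seeing the data.

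The single gene of the lists around AP-1 past the threshold, Dusp8, became 0 without a filter, with probes above background on all 6 arrays (where it was not tested) and by the methods' t-test with adjustment. There were 2 under normexp and 2 with array weights (Cdkn1a added in both), 3 with an intensity trend (Ddit3 added as well), 6 by the methods' t-test without adjustment, 8 at an unadjusted limma p and 1 to 2 with each mouse left out. Where no cause is given, it was not tested. Under normexp the log2 fold change of Fosb was 0.31 in place of 1.21. Same-numbered mice of both groups did not deviate together over the array (r over tested probes 0.0897, 0.00656 and -0.0916). These values cannot exclude a pairing by number for single genes. With the replicate number as a block 0 members and 0 list genes were past the threshold, and the count over all genes went from 230 to 45. Fos, Fosl1 and Batf are limited by signals near background.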
